A study of Mus musculus with 12 samples.

Results

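The 38 genes described here encode the machinery of glycolysis and the core of the cellular response to low oxygen: 5 transporters of glucose or lactate, 20 glycolytic enzymes and their regulators, 2 pyruvate dehydrogenase kinases, 4 subunits or prolyl hydroxylases of the hypoxia-inducible factor (HIF), and 7 further HIF targets. They were taken by gene symbol, with the requirement of at least 10 counts in 3 or more libraries. All 38 had a row in the count tables and met this requirement, as did 20264 of the 52553 features in all, and all 38 were among the 20135 features tested.

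The libraries were made from monocytes of male C57BL/6 mice, isolated from the spleen or from peripheral blood on magnetic beads by their surface receptor CD115. There were 4 groups of 3 libraries: splenic monocytes of intact mice, splenic monocytes 24 h after resection of 70% of the liver, blood monocytes of intact mice, and blood monocytes 24 h after the same resection. Each library pooled cells of 5 mice, so that a library, not a mouse, was the replicate, and p-values measure the spread between pools. The mice carried no transgene or mutation that the labels name. By the labels the intact mice kept both spleen and liver, and no sham operation is named for them. Resection therefore cannot be told apart from the abdominal incision and sutures, anaesthesia and analgesia that went with it. The splenic cells were released mechanically and with collagenase, freed of erythrocytes by lysis and passed over Ficoll, whereas blood was passed over Ficoll only, so tissue and preparation cannot be told apart either.

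Glycolysis splits glucose into pyruvate. Hexokinase traps glucose in the cell, phosphofructokinase commits it to breakdown, and lactate dehydrogenase turns pyruvate into lactate, which leaves the cell through monocarboxylate transporters. Under low oxygen the prolyl hydroxylases stop marking HIF alpha subunits for destruction, and HIF then raises the transcription of most glycolytic genes and of pyruvate dehydrogenase kinases, which keep pyruvate out of the mitochondria. In myeloid cells, inflammatory signals are known to raise the same genes at normal oxygen.

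The libraries held 36990033 to 46401368 estimated counts each, and levels are given as CPM, estimated counts brought to a common library size with trimmed mean of M-values (TMM) factors. CPM is not divided by transcript length, so levels are compared between libraries and not between genes. The monocyte marker Csf1r, the gene for CD115, stood at 209 to 1192 CPM and Lyz2 at 708 to 9043 CPM over the 12 libraries. The 12 monocyte markers listed did not move together. After resection 3 were called higher and 2 lower in blood. In spleen 0 were called, with 2 higher and 3 lower at an unadjusted p under 0.05. Over all features, 10.8% were called higher and 10.3% lower in blood, and 1.02% and 1.03% in spleen. For counts at an unadjusted p, here and below, the share of all features was not counted. Markers of other cells were also present and moved with the groups. The summed level of 16 neutrophil markers was 167 to 619 CPM in intact and 4413 to 21826 CPM in resected blood. It was 1413 to 2495 CPM in the intact and 5856 to 16164 CPM in the resected spleen. Of the 16, 15 were called higher after resection in blood. In spleen 3 were called higher, and 12 were higher at an unadjusted p under 0.05. The summed level of 10 peritoneal macrophage markers was 4005 to 7309 CPM in intact and 23235 to 33428 CPM in resected blood, with 7 called higher, and 361 to 518 CPM in the intact and 752 to 2694 CPM in the resected spleen, with 5 higher and 1 lower at an unadjusted p under 0.05. Its defining factor Gata6 lay between 2.85 and 23.7 CPM in blood and between 0 and 0.164 CPM in spleen. Of 8 red pulp macrophage markers, 6 were called higher after resection in blood and 1 in spleen. The summed level of 8 T cell markers was 737 to 1704 CPM in intact and 142 to 263 CPM in resected blood, with 6 called lower, and 126 to 275 CPM in the intact and 51.5 to 78.2 CPM in the resected spleen, with 1 called lower. The 8 B cell markers summed to 4541 to 5197 CPM in the intact and 1261 to 4038 CPM in the resected spleen, lowest in library 3. In blood they summed to 568 to 2601 CPM in intact and 758 to 1859 CPM in resected mice. The 7 NK cell markers summed to 142 to 331 CPM in intact and 33.7 to 86.3 CPM in resected blood. In spleen they summed to 70.1 to 145 CPM and 9.10 to 41.2 CPM. Of both lists 0 were called after resection in either tissue. Haemoglobin transcripts took 13.2% to 34.2% of gene counts in blood, 0.0814% to 0.363% in the intact spleen and 0.795% to 3.47% in the resected spleen, where all 6 tested haemoglobin genes were higher at an unadjusted p under 0.05. So were 6 of 7 other erythroid markers, whose summed level was 158 to 611 CPM in the intact and 756 to 2838 CPM in the resected spleen. The 7 platelet markers summed to 88.0 to 316 CPM in intact and 826 to 911 CPM in resected blood, with 1 called higher. In spleen they summed to 8.96 to 18.9 CPM and 11.8 to 30.2 CPM, with 0 called. In these bulk samples fewer cells of a type and less RNA per cell cannot be told apart, and the part of these other cells in the results below was not tested.

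Some pools stood apart from their groups in these genes. Intact blood library 3 had the highest T cell sum, 1704 CPM, and the lowest monocyte sum of the blood pools, 3955 CPM, and it was high in Egln3, Epas1, Pfkm and Slc16a1 and low in Slc2a1, Slc2a3 and Hk3. Resected spleen library 3 had the highest neutrophil sum of its group, 16164 CPM, and the highest level of most glycolytic enzymes, whose sum was 6864 CPM against 3193 and 3303 CPM in the other pools of its group. Resected blood library 3 had the highest neutrophil sum of all, 21826 CPM, and the highest glycolytic enzyme sum, 10428 CPM. Its neutrophil markers split. S100a8 (7421 CPM), S100a9 (5866 CPM), Ngp, Retnlg, Mmp8, Mmp9, Csf3r, Cxcr2, Ly6g and Fcnb were the highest of the resected blood pools. Camp (16.1 CPM), Prtn3 (42.5 CPM), Cebpe (5.01 CPM) and Mpo (8.13 CPM) were the lowest, and Ltf and Elane lay between. Results are therefore also given without these libraries.

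**Figure D1:**
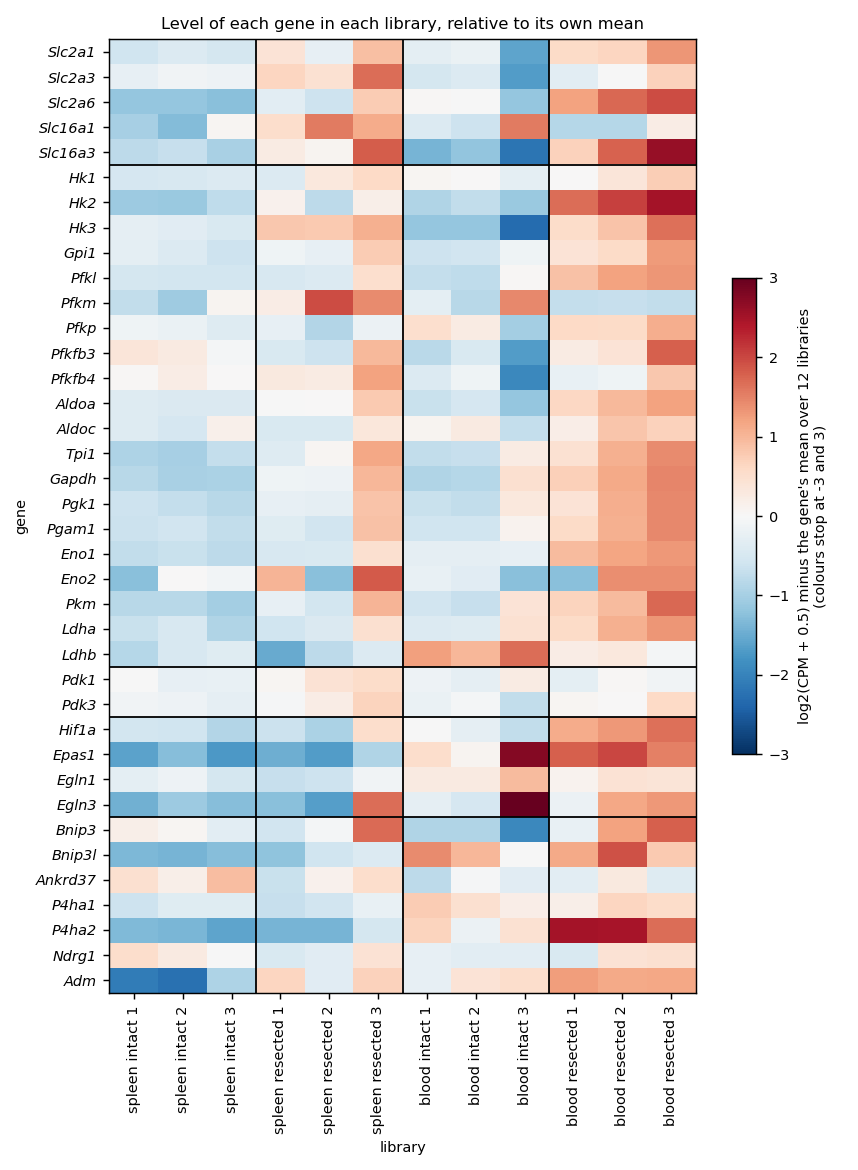
Heat map of the 38 genes (rows, parted by role) in the 12 libraries (columns, parted by group), with colour showing log2(CPM + 0.5) minus the mean of the gene over the 12 libraries. The resected blood libraries are red for most transporters and enzymes, and intact blood library 3 and resected spleen library 3 differ from the other pools of their groups.

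The first comparison asked how blood monocytes changed 24 h after resection. Of the 38 genes, 18 were called higher and 1 lower at an adjusted p under 0.05, with no limit on the fold. Over all features tested, 10.8% were called higher and 10.3% lower. The called genes were 3 of the 5 transporters, 13 of the 20 enzymes (12 higher and 1 lower), Hif1a among the 4 HIF subunits and prolyl hydroxylases, and 2 of the 7 further HIF targets, and neither pyruvate dehydrogenase kinase. The median log2 fold change of the 38 was 1.15, against -0.10 over all features, and 31 of the 38 had a positive fold change. The 3 libraries of each group did not overlap for 23 of the 38 genes in the higher direction and for 1 in the lower, as compared with 19.4% and 19% of all features.

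Of the transporters, Slc16a3, which exports lactate, had the largest difference. Its level was 22.1, 25.6 and 12.5 CPM in intact blood libraries 1, 2 and 3 and 94.7, 202 and 364 CPM in the resected ones, a log2 fold change of 3.45 (SE 0.60, adjusted p = 0.00434). The groups were far apart, although the resected pools themselves differed widely. Slc2a6, a glucose transporter of haematopoietic cells, stood at 37.7, 36.4 and 16.1 CPM in intact and 85.8, 121 and 142 CPM in resected blood (log2 fold change 1.95, SE 0.407, adjusted p = 0.00955), and no intact pool reached a resected one. Slc2a1, the basal glucose transporter GLUT1, stood at 78.5, 83.5 and 31.9 CPM in intact and 144, 151 and 244 CPM in resected blood (log2 fold change 1.48, SE 0.393, adjusted p = 0.0253), again without overlap. Slc2a3, the high-affinity glucose transporter, ranged from 32.7 to 79.3 CPM in intact and from 85.3 to 170 CPM in resected blood and did not pass (log2 fold change 0.96, adjusted p = 0.123). Slc16a1, the monocarboxylate transporter that most tissues use, did not pass either (log2 fold change -0.95, adjusted p = 0.305), and its level of 101 CPM in intact blood library 3 lay above all other blood pools, which ranged from 18.6 to 39.7 CPM.

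Among the enzymes at the entry of the pathway, Hk2, the inducible hexokinase that binds mitochondria, had the smallest p of all 38 genes. Its level was 19.3, 21.7 and 16.6 CPM in intact and 118, 154 and 208 CPM in resected blood, a log2 fold change of 3.06 (SE 0.298, adjusted p = 0.000546). Every resected pool lay above every intact pool by a wide margin. Hk3, the hexokinase of myeloid cells, stood at 21.6, 21.5 and 9.37 CPM in intact and 71.3, 88.2 and 155 CPM in resected blood (log2 fold change 2.58, SE 0.358, adjusted p = 0.00181). Hk1, the housekeeping hexokinase, ranged from 86.4 to 110 CPM and from 107 to 176 CPM and did not pass (log2 fold change 0.47, adjusted p = 0.206). Thus the inducible and the myeloid hexokinase passed the test, and the housekeeping one did not. Gpi1, the isomerase that follows hexokinase, stood at 293, 302 and 413 CPM in intact and 596, 669 and 1090 CPM in resected blood (log2 fold change 1.22, SE 0.317, adjusted p = 0.0227).

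At the phosphofructokinase step, Pfkl, the liver-type subunit that is also abundant in leukocytes, stood at 50.3, 48.4 and 83.9 CPM in intact and 152, 191 and 205 CPM in resected blood (log2 fold change 1.59, SE 0.295, adjusted p = 0.00575). The pools did not overlap. The muscle-type subunit Pfkm had a negative fold change that did not pass (log2 fold change -1.24, adjusted p = 0.19), with 24.6 CPM in intact blood library 3 and 4.75 to 7.05 CPM in all other blood pools. Pfkp, the platelet-type subunit, did not pass (log2 fold change 0.73, adjusted p = 0.162). Pfkfb3, which makes the allosteric activator of phosphofructokinase, stood at 38.7, 49.3 and 20.8 CPM in intact and 80.4, 89.4 and 236 CPM in resected blood (log2 fold change 1.90, SE 0.546, adjusted p = 0.0342). Resected library 3 was far above the other pools, and a fit lacking it gave 1.24, which no longer passed. Pfkfb4, a related enzyme, did not pass (log2 fold change 0.88, adjusted p = 0.196).

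Further down the pathway, Aldoa, the aldolase of most tissues, stood at 255, 284 and 181 CPM in intact and 629, 801 and 934 CPM in resected blood (log2 fold change 1.72, SE 0.264, adjusted p = 0.00271). Eno1, the ubiquitous enolase, stood at 257, 256 and 263 CPM in intact and 604, 705 and 769 CPM in resected blood (log2 fold change 1.42, SE 0.244, adjusted p = 0.00402). For both genes the resected pools lay above all intact pools, which for Eno1 were close together, while intact library 3 was the lowest for Aldoa. The enzymes between them, Tpi1, Gapdh, Pgk1 and Pgam1, rose by 1.33 to 1.41 on the log2 scale, with adjusted p of 0.0306 to 0.0456. Gapdh, at 305, 317 and 800 CPM in intact and 937, 1252 and 1590 CPM in resected blood, had a log2 fold change of 2.01 without intact library 3 against 1.41 with it. Pkm, the pyruvate kinase of leukocytes, at 507 to 1075 CPM in intact and 1289 to 2678 CPM in resected blood, did not pass by edgeR (log2 fold change 1.38, adjusted p = 0.0581). It was called under 7 of the 26 alternative settings, among them DESeq2 (adjusted p = 0.00805), limma voom (adjusted p = 0.000794) and the replicate block (adjusted p = 0.0232), and its adjusted p reached 0.166 over the alternatives. Aldoc, at 1.55 to 5.5 CPM, did not pass, and Eno2 was at 0 to 2.62 CPM in blood, too low for its fold to be read.

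At the last step, the subunits of lactate dehydrogenase moved in opposite directions. Ldha, the subunit of the muscle-type enzyme that favours lactate formation, stood at 247, 248 and 446 CPM in intact and 487, 678 and 815 CPM in resected blood (log2 fold change 1.07, SE 0.342, adjusted p = 0.0498). Intact library 3 was the highest of its group and still below the lowest resected pool. Ldhb, the heart-type subunit, was the 1 gene of the 38 called lower, at 15.9, 13.3 and 21.6 CPM in intact and 7.63, 8.12 and 6.19 CPM in resected blood (log2 fold change -1.21, SE 0.333, adjusted p = 0.0288). T cell markers also fell in these libraries, as given above.

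Neither pyruvate dehydrogenase kinase passed. Pdk1, the classical HIF target among them, stood at 16.5, 15.3 and 22.1 CPM in intact and 14.9, 18.9 and 17.1 CPM in resected blood, with a log2 fold change of -0.08 (SE 0.191, adjusted p = 0.794), and the groups overlapped. Pdk3 had a log2 fold change of 0.56 (adjusted p = 0.13).

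Of the HIF subunits, Hif1a, the oxygen-regulated subunit that drives glycolytic genes, stood at 199, 166 and 119 CPM in intact and 432, 492 and 631 CPM in resected blood (log2 fold change 1.69, SE 0.367, adjusted p = 0.0114), without overlap. Its protein is regulated mainly by degradation, which these RNA counts do not measure. Epas1, the related HIF-2 alpha subunit, did not pass (log2 fold change 0.17, adjusted p = 0.878): it stood at 7.05, 5.09 and 35.0 CPM in intact and at 17.8, 20.5 and 14.6 CPM in resected blood, and a fit lacking intact library 3 gave 1.53, which passed (adjusted p = 0.0156, with a range of 0.000529 to 0.951 over the alternatives). The prolyl hydroxylases Egln1 and Egln3 did not pass, with log2 fold changes of -0.21 and -1.27, and neither sign was stable: without intact library 3 the values were 0.05 and 1.38, and limma voom gave 1.14 for Egln3. Egln3 was at 69.5 CPM in intact library 3 and at 3.73 to 14.4 CPM in the other blood pools.

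Of the further HIF targets, P4ha2, a collagen prolyl hydroxylase subunit, rose from levels of 1.10 to 2.39 CPM in intact to levels of 5.35 to 9.70 CPM in resected blood (log2 fold change 2.16, adjusted p = 0.0289), and Bnip3, a mitophagy receptor, rose from 2.64 to 5.91 CPM in intact to 9.86 to 40.9 CPM in resected blood (log2 fold change 2.43, adjusted p = 0.0305). Adm, the vasodilator peptide adrenomedullin, stood at 4.29, 7.04 and 7.67 CPM in intact and 13.1, 12 and 12.2 CPM in resected blood, which did not overlap but did not pass (log2 fold change 0.97, SE 0.485, adjusted p = 0.179). Bnip3l, Ankrd37, P4ha1 and Ndrg1 did not pass, with log2 fold changes of -0.04 to 0.50.

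The calls rested to different degrees on single pools. Hk2, Hk3, Aldoa, Eno1, Slc16a3, Pfkl, Slc2a6 and Hif1a, 8 of the 19, were called under each of 26 alternative settings. The other 11 lost the call under at least 1 of them, where their adjusted p reached 0.0674 to 0.141. Dropping resected blood library 2 lowered the count from 19 to 9, as did dropping its library 3. In these fits 11.5% and 11.7% of all features were called, against 10.8% higher and 10.3% lower in the main fit. Dropping intact blood library 1 gave 10, as did dropping library 2 of that group, with 17.4% and 15.9% of all features called. The count was 20 without intact blood library 3, resected blood library 3 and resected spleen library 3 together, with 23.9% of all features called.

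**Figure D2:**
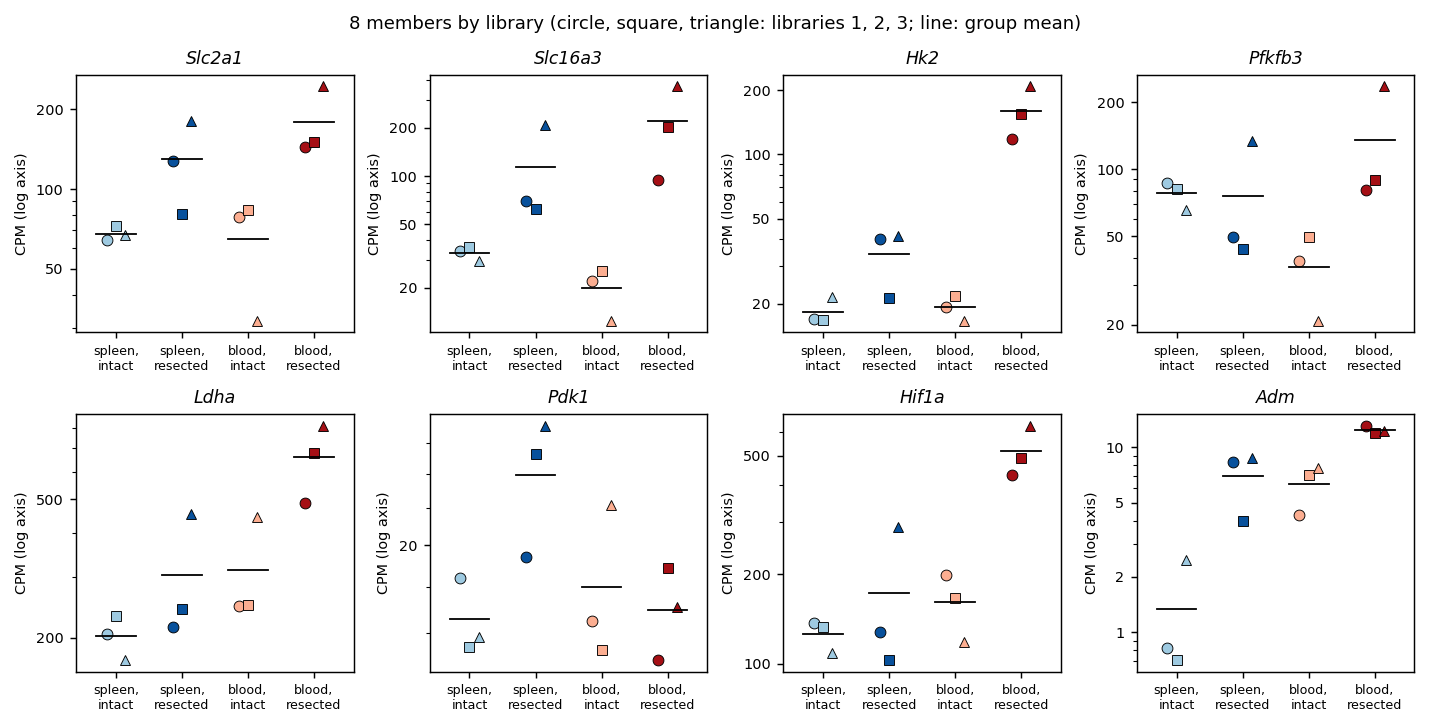
Levels of 8 of the genes in each library, in CPM on log axes, with the 4 groups on the horizontal axes, a symbol for each library and a line at the group mean. The resected blood libraries lie above all intact blood libraries for Slc2a1, Slc16a3, Hk2, Pfkfb3, Ldha, Hif1a and Adm, and overlap them for Pdk1.

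The promoters of the 4 transporters, enzymes or HIF targets with the smallest p in this comparison are shown because HIF binds a short element, the hypoxia response element, whose core is ACGTG or GCGTG. The sequences are those of RefSeq on mouse build GRCm38.p6 and run 5′ to 3′ along the gene, from 250 bases before to 50 bases after the annotated start. Where a gene has several starts, the one listed first is shown. Capitals mark each match to either core. A core on the other strand reads as CACGT for the former and as CACGC for the latter, and matches on both strands can overlap. Hk2 lies at chr6:82774405-82774704 on the minus strand, Hk3 at chr13:55021336-55021635 on the minus strand, Aldoa at chr7:126800398-126800697 on the minus strand, and Eno1 at chr4:150236458-150236757 on the plus strand.
Hk2: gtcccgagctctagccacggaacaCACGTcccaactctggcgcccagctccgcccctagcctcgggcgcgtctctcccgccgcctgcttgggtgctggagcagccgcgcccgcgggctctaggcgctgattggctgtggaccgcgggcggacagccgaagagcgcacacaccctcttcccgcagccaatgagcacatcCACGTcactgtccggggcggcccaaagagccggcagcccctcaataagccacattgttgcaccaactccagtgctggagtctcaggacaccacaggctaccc
Hk3: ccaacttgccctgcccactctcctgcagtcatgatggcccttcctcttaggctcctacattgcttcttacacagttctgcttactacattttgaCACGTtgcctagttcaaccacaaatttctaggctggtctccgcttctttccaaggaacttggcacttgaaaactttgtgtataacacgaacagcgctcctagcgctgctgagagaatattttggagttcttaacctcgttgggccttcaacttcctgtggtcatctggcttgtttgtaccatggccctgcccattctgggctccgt
Aldoa: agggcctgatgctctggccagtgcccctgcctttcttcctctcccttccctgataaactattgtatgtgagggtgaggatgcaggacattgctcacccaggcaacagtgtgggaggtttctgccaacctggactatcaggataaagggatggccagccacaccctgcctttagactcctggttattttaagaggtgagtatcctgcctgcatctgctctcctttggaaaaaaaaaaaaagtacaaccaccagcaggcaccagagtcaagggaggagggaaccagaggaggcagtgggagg
Eno1: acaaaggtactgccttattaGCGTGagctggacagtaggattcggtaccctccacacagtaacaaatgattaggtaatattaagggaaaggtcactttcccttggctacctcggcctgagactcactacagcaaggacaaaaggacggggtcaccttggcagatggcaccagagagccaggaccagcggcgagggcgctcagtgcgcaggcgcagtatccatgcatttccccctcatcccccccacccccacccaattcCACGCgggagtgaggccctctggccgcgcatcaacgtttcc
In these windows Hk2 had 2 matches, Hk3 had 1, Eno1 had 2, and Aldoa had 0 at the start shown and 1 at each of its other 2 starts. A promoter was listed for 34 of the 38 genes and not for Ndrg1, Slc2a3, Bnip3l and Epas1. At least 1 core was found in 28 of these 34 (82.4%), as compared with 43.8% of the 27025 genes listed, both counted at the start listed first. The cores contain the dinucleotide CG, of which the promoters of the 34 genes held a median of 21.5 and those of all genes 7, and 74.7% of the genes with at least 21.5 CG held a core. Gpi1, Tpi1 and Aldoa were called higher without a core in the window, and Pdk1, Adm and P4ha1 had 2, 2 and 3 cores and were not called. The matches describe letters only and show no binding.

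The next comparison asked the same of splenic monocytes. Adm was the 1 gene of the 38 called higher and 0 were called lower, while 1.02% of all features were called higher and 1.03% lower. Adm stood at 0.821, 0.710 and 2.47 CPM in the intact and 8.31, 4.0 and 8.73 CPM in the resected spleen (log2 fold change 2.39, SE 0.508, adjusted p = 0.0472). The groups did not overlap, and Adm was the gene with the smallest p of the 38. The call was lost when any single library other than intact spleen library 3 or intact blood library 3 was left out, with an adjusted p of up to 0.209 over the alternatives, while its log2 fold change stayed between 2.09 and 3.18, the highest without intact spleen library 3.

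Most of the other genes were higher in the resected spleen by amounts that did not pass. The median log2 fold change of the 38 was 0.71, against 0.05 over all features, and 17 were higher and 0 lower at an unadjusted p under 0.05. The share of all features at that unadjusted level was not counted. The libraries did not overlap for 21 of the 38 in the higher direction and for 0 in the lower, as compared with 17.4% and 17.7% of all features. DESeq2, the alternative count test, called 11 higher and 0 lower, where it called 7.25% of all features higher, and limma voom with sample weights called 12 higher and 0 lower, where it called 10.9% higher. Both called Adm, Gapdh, Hk2, Hk3, Pdk1, Pfkm, Slc16a1, Slc2a3, Slc2a6 and Tpi1. The number of calls thus turned on the test, and it also turned on single pools: edgeR called 6 without intact blood library 3, where it called 9.59% of all features, and 0 without resected spleen library 3, where it called 0.128%. Without intact blood library 3, resected blood library 3 and resected spleen library 3 together, 4 were called higher (Gapdh, Hk3, Slc2a3 and Slc2a6) and Pfkfb3 lower, with 8.32% of all features called.

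Of the transporters in spleen, Slc2a1 stood at 64.1, 72.8 and 67.1 CPM in the intact and 128, 80.8 and 181 CPM in the resected spleen (log2 fold change 0.93, SE 0.388, adjusted p = 0.205). Slc16a3 stood at 33.8, 36.2 and 29.5 CPM and at 70.1, 62.4 and 209 CPM (log2 fold change 1.78, SE 0.561, adjusted p = 0.115). For both genes the groups did not overlap, and resected library 3 was the highest pool. Slc16a1 ranged from 13.6 to 35.5 CPM in the intact and from 49.5 to 102 CPM in the resected spleen, with a log2 fold change of 1.78 (adjusted p = 0.151). Its highest pool was resected library 2, in which haemoglobin took 3.47% of the counts, the highest share of the splenic pools.

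Of the enzymes in spleen, Hk2 stood at 16.9, 16.7 and 21.5 CPM in the intact and 40.2, 21.2 and 41.5 CPM in the resected spleen (log2 fold change 0.90, SE 0.278, adjusted p = 0.111), and resected library 2 lay among the intact pools. Hk3 was the enzyme with the smallest p, at 35.1 to 40.2 CPM and 83.7 to 103 CPM (log2 fold change 1.26, adjusted p = 0.0842). Pfkfb3 stood at 86.6, 81.7 and 65.4 CPM and at 49.5, 43.9 and 134 CPM (log2 fold change -0.04, SE 0.528, adjusted p = 0.983). Its resected libraries 1 and 2 lay below every intact pool, and resected library 3 above every one of them. Ldha stood at 205, 231 and 173 CPM and at 215, 241 and 452 CPM (log2 fold change 0.58, SE 0.339, adjusted p = 0.366), so that only library 3 was clearly apart. Pfkm ranged from 3.90 to 9.34 CPM in the intact and from 10.3 to 35.6 CPM in the resected spleen (log2 fold change 1.93, adjusted p = 0.13), and it too was highest in resected library 2. The part of erythroid RNA in the splenic levels of Slc16a1 and Pfkm was not tested.

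Pdk1 stood at 18.4, 15.4 and 15.8 CPM in the intact and 19.4, 25.2 and 27.2 CPM in the resected spleen (log2 fold change 0.53, SE 0.191, adjusted p = 0.15), without overlap. Hif1a stood at 137, 132 and 108 CPM and at 128, 103 and 288 CPM (log2 fold change 0.46, SE 0.358, adjusted p = 0.508), and resected libraries 1 and 2 did not stand above the intact pools. Bnip3, P4ha2 and Egln3 likewise had their highest splenic level in resected library 3, at 38.5, 0.762 and 18.7 CPM, and none of them passed.

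**Figure D3:**
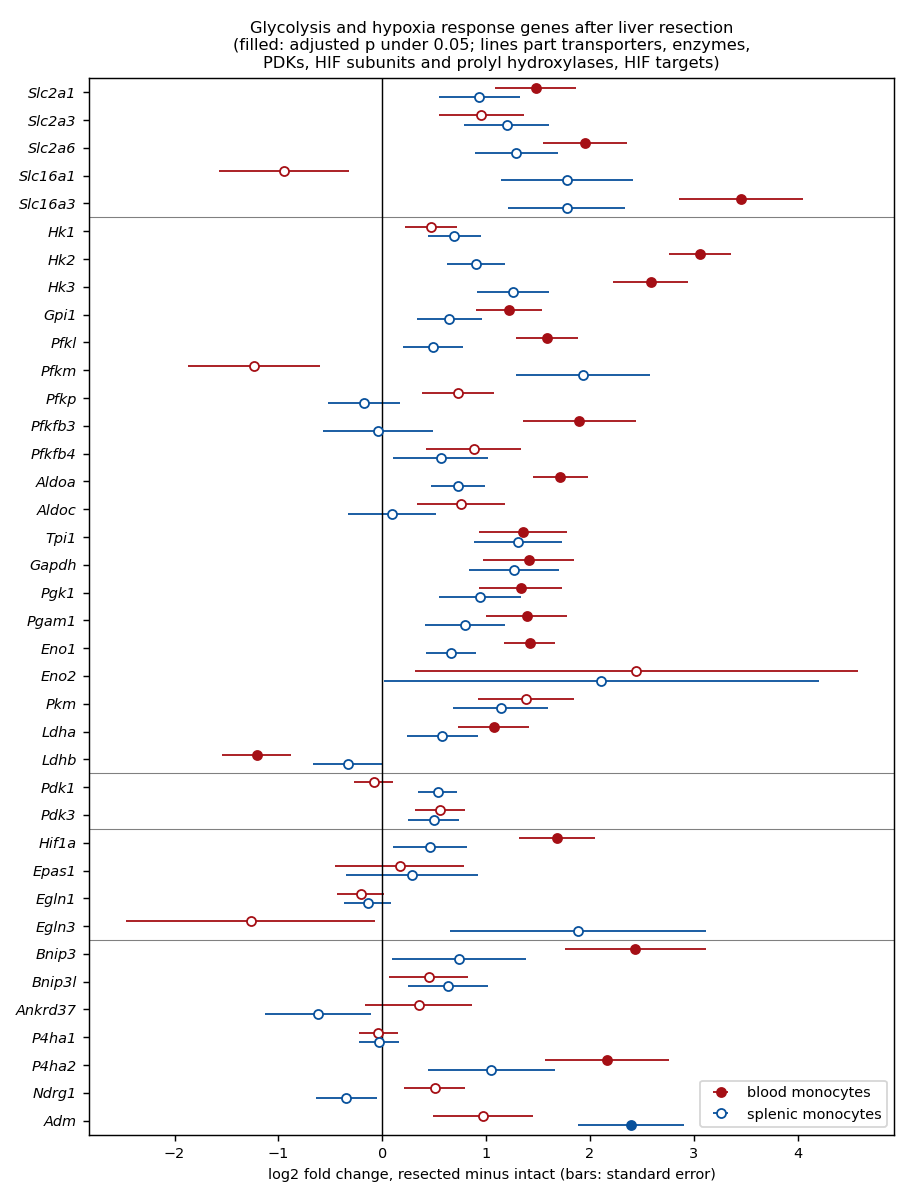
Log2 fold change after resection (horizontal axis, resected minus intact, bars showing the standard error) for each of the 38 genes, in blood (red) and splenic (blue) monocytes, with filled points for an adjusted p under 0.05. In blood, 18 genes are filled to the right of 0 and Ldhb to the left, and in spleen Adm alone is filled.

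Whether resection changed a gene differently in the 2 tissues was tested as an interaction. EdgeR called 0 of the 38, against 0.219% of all features with a larger change in blood and 0.0646% with a smaller one. At an unadjusted p under 0.05, 7 of the 38 had a larger and 3 a smaller change in blood, again without a count over all features. Hk2 came closest: its change was larger in blood by 2.16 on the log2 scale (SE 0.395, adjusted p = 0.0615). It was called by DESeq2, by limma voom and with a filter of at least 10 counts in every library, and its adjusted p ranged from 3.96e-05 to 0.172 over the alternatives. Pfkm (difference of the log2 fold changes -3.17, SE 0.902, adjusted p = 0.159) and Slc16a1 (-2.72, SE 0.888, adjusted p = 0.188) pointed the other way. Without intact blood library 3 the differences were -2.14 and -1.68, and the log2 fold changes of the genes in blood were -0.20 and 0.10. DESeq2 called 3 of the 38 (Hk2, Pfkm and Slc16a1), where it called 8.05% of all features, and limma voom called 5 (Eno1, Hif1a, Hk2, Pfkl and Slc16a1), where it called 5.68%. Without intact blood library 3, resected blood library 3 and resected spleen library 3 together, 7 were called with a larger change in blood (Aldoa, Eno1, Gapdh, Hif1a, Pfkfb3, Pfkl and Pgam1), with 2.76% of all features called in either direction. A call for the other genes in blood and not in spleen does not by itself show that the tissues differ.

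Ratios of the counts of 2 related genes within a library do not depend on how libraries are scaled, and gene length cancels when such a ratio is compared between groups. The ratio of Hk2 to Hk1 counts was 0.176, 0.205 and 0.193 in intact blood libraries 1, 2 and 3 and 1.10, 1.14 and 1.18 in the resected ones. This was a shift between tight groups, whereas in spleen the ratio was 0.223 to 0.271 in intact and 0.161 to 0.506 in resected pools, which overlapped. The ratio of Ldha to Ldhb was 15.6 to 20.7 in intact and 63.8 to 132 in resected blood, and 35.0 to 60.8 in the intact and 68.7 to 111 in the resected spleen, without overlap in either tissue. Intact blood thus had the lowest ratio of muscle-type to heart-type subunit counts of the 4 groups. The ratio of the lactate exporter Slc16a3 to Slc16a1 was 0.124 to 1.17 in intact and 5.10 to 10.8 in resected blood, and 0.831 to 2.67 and 0.613 to 2.80 in spleen. The ratio of Pfkl to Pfkm was 3.41 to 10.2 in intact and 29.2 to 40.8 in resected blood, and 6.03 to 14.4 in the intact and 1.75 to 5.78 in the resected spleen. It therefore lay higher after resection in blood and lower after resection in spleen, with no overlap in either tissue.

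**Figure D4:**
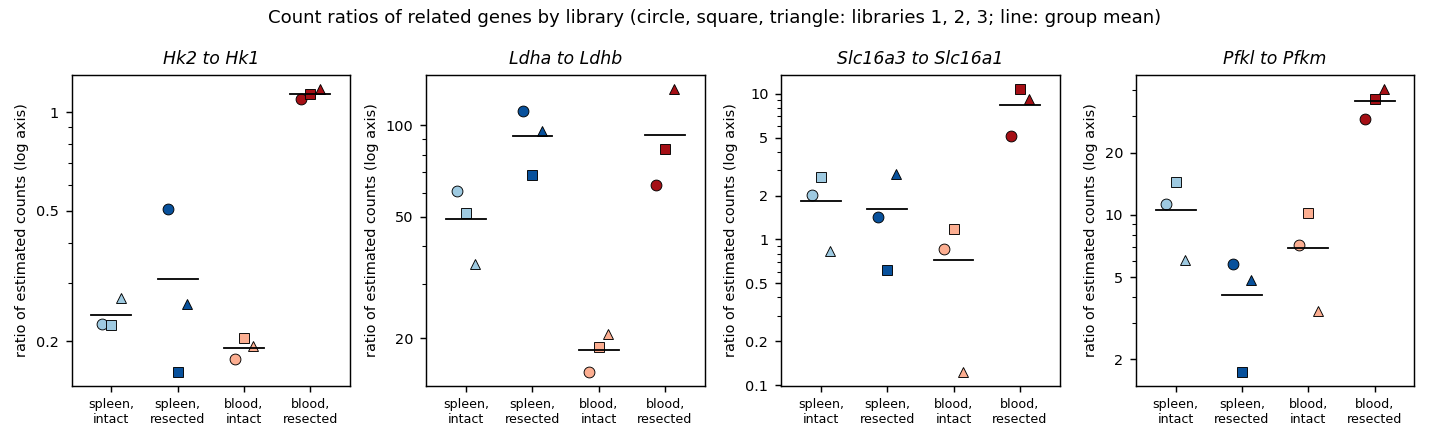
Ratios of the estimated counts of related genes in each library (vertical log axes), by group, with a symbol for each library and a line at the group mean. The ratio of Hk2 to Hk1 is near 0.2 in all intact blood pools and 1.10 to 1.18 in all resected ones.

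Blood and splenic monocytes were then compared within each state. These comparisons share their libraries with those of resection, and their values are given side by side. Changing the scaling moved the median log2 fold change of all features here from -0.02 to 0.10 in intact and from -0.14 to -0.02 in resected mice when haemoglobin genes were left out. No gene of the 38 called in these comparisons changed direction with the scaling.

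In intact mice, 7 of the 38 were called higher in blood and 0 lower, as compared with 4.51% and 4.66% of all features. At an unadjusted p under 0.05, 2 were lower in blood by edgeR. DESeq2 called 1 lower and limma voom 2. Only 1 of the 7, Ldhb, was a glycolytic enzyme, and the others belonged to the HIF genes. Ldhb stood at 15.9, 13.3 and 21.6 CPM in blood and 3.37, 4.51 and 4.94 CPM in spleen (log2 fold change 1.98, SE 0.341, adjusted p = 0.00873). Bnip3l, a mitophagy receptor that clears mitochondria from maturing erythrocytes, stood at 766, 570 and 284 CPM in blood and 113, 109 and 118 CPM in spleen (log2 fold change 2.25, SE 0.399, adjusted p = 0.0101). Both genes were far higher in every blood pool. Over the 6 blood libraries, Bnip3l followed the share of haemoglobin in the counts, from 284 CPM at 13.2% to 1080 CPM at 34.2%, without a break in order, and the part of erythrocyte RNA in its level was not tested.

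P4ha2 stood at 2.39, 1.10 and 1.99 CPM in blood and 0.231, 0.209 and 0.106 CPM in spleen (log2 fold change 3.31, SE 0.64, adjusted p = 0.0136). Its splenic level amounted to 5 to 11 counts a library. Epas1 stood at 7.05, 5.09 and 35.0 CPM in blood and 1.22, 1.67 and 1.11 CPM in spleen (log2 fold change 3.56, SE 0.691, adjusted p = 0.0142), and its log2 fold change was 2.29 without intact blood library 3. P4ha1, which like P4ha2 encodes a catalytic subunit of collagen prolyl hydroxylase, stood at 112, 92.5 and 76.1 CPM and 42.4, 50.8 and 51.0 CPM (log2 fold change 0.96, SE 0.193, adjusted p = 0.0156). All blood pools exceeded all splenic pools for these genes. Adm, with the levels given above, had a log2 fold change of 2.25 (SE 0.506, adjusted p = 0.0247), and of 3.14 without intact spleen library 3. Egln1, the main oxygen sensor among the prolyl hydroxylases, stood at 64.2, 64.3 and 103 CPM and 43.7, 48.4 and 36.9 CPM (log2 fold change 0.85, SE 0.229, adjusted p = 0.0457).

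Of the genes followed throughout, Slc2a1 (log2 fold change -0.07, SE 0.385, adjusted p = 0.936; it changed sign with the scaling), Hk2 (0.07, SE 0.277, adjusted p = 0.919), Pdk1 (0.12, SE 0.19, adjusted p = 0.754) and Hif1a (0.36, SE 0.358, adjusted p = 0.589) overlapped between blood and spleen of intact mice. Pfkfb3 (log2 fold change -1.10, SE 0.535, adjusted p = 0.231), Slc16a3 (-0.72, SE 0.55, adjusted p = 0.455) and Ldha (0.63, SE 0.34, adjusted p = 0.282) did not overlap and did not pass. Calls of Ldhb and Bnip3l held under all 26 alternatives. The number of calls was 2 without intact spleen library 1, where 2.65% of all features were called. It was 4 without intact spleen library 2 (3.06% of all features) or without intact spleen library 3 (3.89%). Without intact blood library 3, resected blood library 3 and resected spleen library 3 together, 11 were called higher and 2 lower (16.4%).

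After resection, 13 of the 38 were called higher in blood than in spleen and 1 lower, as compared with 8.54% and 10.6% of all features. Of the glycolytic genes, Hk2, Eno1, Pfkl, Pfkp, Ldha, Ldhb and the transporter Slc2a6 were higher, and Pfkm was lower. Ldhb was also called in intact mice. Calls after resection and not in intact mice do not by themselves show that the states differ, and the edgeR interaction called 0 of the 38. The HIF genes P4ha2, Bnip3l, Epas1, P4ha1, Hif1a and Egln1 were also higher. The largest support was for Hk2, at 118, 154 and 208 CPM in blood and 40.2, 21.2 and 41.5 CPM in spleen (log2 fold change 2.22, SE 0.288, adjusted p = 0.00139). P4ha2 stood at 9.70, 9.55 and 5.35 CPM and 0.187, 0.196 and 0.762 CPM (log2 fold change 4.42, SE 0.663, adjusted p = 0.00242), and its log2 fold change was 5.49 without resected spleen library 3. Both genes differed by far more than the pools of a group did. Bnip3l stood at 634, 1080 and 492 CPM and 123, 190 and 215 CPM (log2 fold change 2.06, SE 0.396, adjusted p = 0.00732). Eno1 stood at 604, 705 and 769 CPM and 223, 228 and 438 CPM (log2 fold change 1.22, SE 0.243, adjusted p = 0.00808).

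Epas1 stood at 17.8, 20.5 and 14.6 CPM in blood and 1.40, 1.16 and 2.31 CPM in spleen (log2 fold change 3.44, SE 0.687, adjusted p = 0.00854). P4ha1 stood at 73.8, 102 and 97.2 CPM and 40.8, 44.0 and 56.4 CPM (log2 fold change 0.95, SE 0.193, adjusted p = 0.00863). The splenic pools lay below all blood pools for both. Hif1a had a log2 fold change of 1.58 (SE 0.366, adjusted p = 0.0161), and of 2.26 without resected spleen library 3. Pfkl stood at 152, 191 and 205 CPM and 59.2, 62.1 and 117 CPM (log2 fold change 1.20, SE 0.292, adjusted p = 0.0194). Resected spleen library 3 was again the splenic pool nearest to blood. Slc2a6 stood at 85.8, 121 and 142 CPM and 29.4, 23.8 and 61.9 CPM (log2 fold change 1.60, SE 0.403, adjusted p = 0.0223), and its log2 fold change was 2.23 without resected spleen library 3. Egln1 stood at 57.3, 72.9 and 70.5 CPM and 33.0, 34.8 and 49.4 CPM (log2 fold change 0.78, SE 0.229, adjusted p = 0.04).

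Ldha was also called, with a log2 fold change of 1.12 (SE 0.342, adjusted p = 0.0457). Of the genes followed throughout that did not pass, Pdk1 was lower in every blood pool than in any splenic pool (log2 fold change -0.50, SE 0.191, adjusted p = 0.0962) and Adm higher in every blood pool (0.82, SE 0.483, adjusted p = 0.26). Slc16a3 (log2 fold change 0.95, SE 0.549, adjusted p = 0.252), Pfkfb3 (0.84, SE 0.531, adjusted p = 0.3) and Slc2a1 (0.47, SE 0.385, adjusted p = 0.431) overlapped, because resected spleen library 3 reached the range of the blood pools. Calls of Hk2, P4ha2, Bnip3l, Eno1 and Epas1 held under every alternative that tested them. The count of 14 fell to 7 without resected spleen library 1, where 9.78% of all features were called, or without resected spleen library 2 (8.84%). It fell to 8 without resected blood library 2 (9.31%) and to 9 without resected blood library 3 (10.3%). Without resected spleen library 3 it was 20 (17.6%). The main fit called 8.54% of all features higher and 10.6% lower.

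The sums of the enzymes follow the same libraries. The 20 glycolytic enzymes added up to 2634 to 4047 CPM in intact and 5929 to 10428 CPM in resected blood, and to 2318 to 2559 CPM in the intact and 3193 to 6864 CPM in the resected spleen. In each resected group, library 3 had both the highest enzyme sum and the highest sum of neutrophil markers, and the part of neutrophil RNA in the enzyme levels was not tested. The single neutrophil markers split in resected blood library 3, as given above. Without resected blood library 3 and resected spleen library 3 together, 15 of the 38 were called higher after resection in blood. In that fit 13.4% of all features were called in either direction. Resected blood libraries 1 and 2 still had neutrophil sums of 4413 and 5553 CPM, against 167 to 619 CPM in intact blood. This count therefore cannot separate neutrophil RNA from the enzyme levels.

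**Figure D5:**
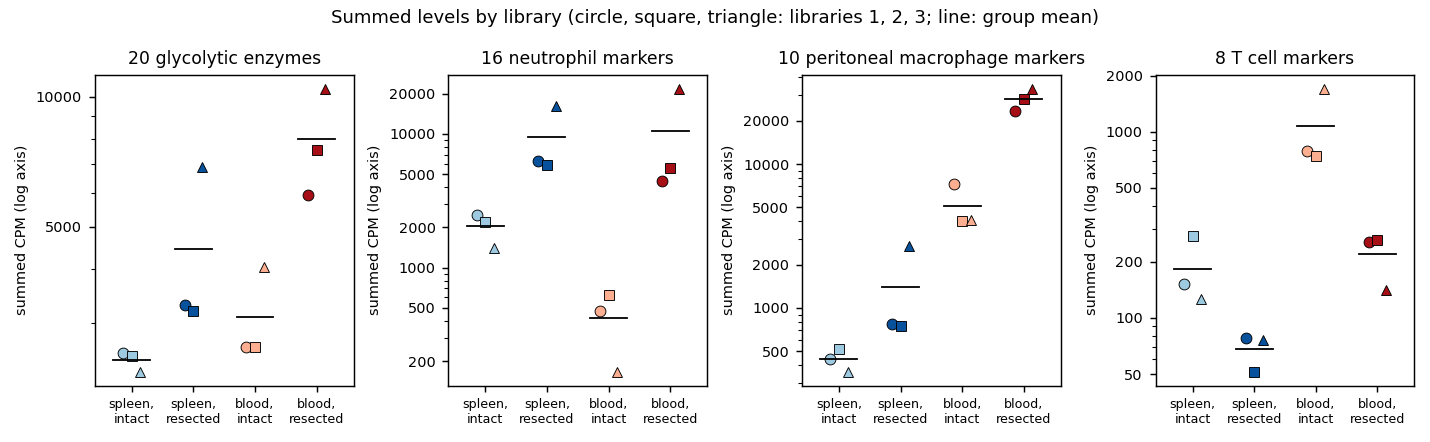
Summed CPM (log axes) of the 20 glycolytic enzymes and of 16 neutrophil, 10 peritoneal macrophage and 8 T cell markers in each library, by group, with a symbol for each library and a line at the group mean. Library 3 has the highest enzyme and neutrophil sums in both resected groups, and intact blood library 3 has the highest T cell sum, 1704 CPM.

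Genes of neighbouring pathways, listed apart from the 38, were counted in the same comparisons. In blood after resection, where edgeR called 10.8% of all features higher and 10.3% lower, it called 3 of 8 pentose phosphate pathway genes higher, with the smallest p for Pgd (log2 fold change 2.08, SE 0.299, adjusted p = 0.00205), which makes NADPH. Of 16 other glycolysis and gluconeogenesis genes tested, 3 were higher, with the smallest p for Pgm2 (1.25, SE 0.227, adjusted p = 0.005). Of 12 genes for the entry of pyruvate into mitochondria, 2 were higher, led by the mitochondrial pyruvate carrier gene Mpc1 (0.62, SE 0.148, adjusted p = 0.0167), and 1 lower, the pyruvate dehydrogenase phosphatase gene Pdp2 (-1.71, SE 0.312, adjusted p = 0.00516). Of 8 other genes of the HIF machinery, 1 was higher, Arnt, the constitutive partner of HIF alpha subunits (0.76, SE 0.189, adjusted p = 0.0193). These lists are short, and their counts turned on the test: limma voom called 7 of the pentose phosphate genes higher and 5 higher and 2 lower of the pyruvate list, and DESeq2 called 3 of the HIF machinery higher. Over all features limma voom called 38% and DESeq2 30.5% in this comparison. In spleen edgeR called none of these genes, with 5 higher and 1 lower of the other glycolysis list, 4 higher of the pentose phosphate list, 2 higher of the pyruvate list and 1 higher of the HIF machinery at an unadjusted p under 0.05. Of the other glycolysis list DESeq2 called 4 higher and 1 lower there and limma voom 5 higher and 2 lower. Of the remaining lists both called 4, 1 and 1 higher. Over all features in spleen, DESeq2 called 7.25% higher and limma voom 10.9%.

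Of 30 other HIF targets, edgeR called 9 higher and 2 lower after resection in blood, against the same 10.8% and 10.3% of all features. Hmox1, haem oxygenase, which the red pulp macrophage list also holds, had the smallest p, at 52.8, 42.3 and 35.5 CPM in intact and 565, 726 and 801 CPM in resected blood (log2 fold change 4.0, SE 0.358, adjusted p = 0.000428). Kdm4b, a histone demethylase, was the lower gene with the smallest p (log2 fold change -0.85, SE 0.108, adjusted p = 0.00131). In spleen, edgeR called 3 of the 30 higher, DESeq2 9 higher and 1 lower, and limma voom 12 higher and 0 lower. Over all features there, edgeR called 1.02% higher, DESeq2 7.25% and limma voom 10.9%. By edgeR the smallest p belonged to Hilpda, a lipid droplet protein gene (log2 fold change 2.11, SE 0.349, adjusted p = 0.0253).

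Between blood and spleen of intact mice, 5 of these 30 HIF targets were higher and 2 lower in blood. Over all features 4.51% were called higher and 4.66% lower. The smallest p belonged to Loxl2, a lysyl oxidase (log2 fold change 5.40, SE 0.818, adjusted p = 0.00502), and Hmox1 (-2.84, SE 0.34, adjusted p = 0.00196). After resection 6 of the 30 were higher and 3 lower, against 8.54% and 10.6% of all features, led by Loxl2 (6.25, SE 0.828, adjusted p = 0.00148) and Kdm4b (-0.73, SE 0.108, adjusted p = 0.00229). Bpgm, which makes the haemoglobin regulator bisphosphoglycerate in erythrocytes, was the higher gene of the other glycolysis list in intact mice (6.08, SE 0.693, adjusted p = 0.00178), at 447 to 1669 CPM in blood and 13.2 to 20.9 CPM in spleen. Its blood levels moved with the share of haemoglobin given above. Eno3, the muscle enolase, was the lower one (-0.89, SE 0.221, adjusted p = 0.0347), and Pdk4, a further pyruvate dehydrogenase kinase, was the 1 called gene of the pyruvate list, at 0.59 to 1.13 CPM in blood and 0 to 0.0639 CPM in spleen of intact mice. After resection the calls between tissues were 1 higher and 1 lower of the other glycolysis list, and 1 and 1 of the pentose phosphate list. Of the pyruvate list 2 were higher, and of the HIF machinery 1 was lower. The shares of all features there were the 8.54% and 10.6% given above.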

How the data were processed

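mRNA of pooled CD115+ monocytes was sequenced in strand-specific libraries. The authors aligned the reads and deposited estimated counts per transcript or gene entry, not normalized. The submitters' processing notes name STAR and build GRCm39. The counting program and its annotation are not given in the sources used here, so how reads shared with processed pseudogenes (as of Gapdh, Eno1 or Pgk1) were divided is unknown.

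Each table had 67088 entries. Accessions were matched to symbols and summed by gene, and 2558 unassigned transcripts, 1.75% to 4.33% of counts, entered neither library sizes nor tests. Counts were rounded to whole numbers and fitted with edgeR 4.0.16 in R 4.3.3 (filterByExpr, TMM factors, robust quasi-likelihood F test, 1 fit of 12 libraries and 4 groups), with Benjamini-Hochberg adjustment over the 20135 features tested. Alternatives were DESeq2 1.42.0, limma 3.58.1, other scalings and filters, a replicate block and left-out libraries. The script was tested on simulated data. A level of 3 counts corresponded to 0.0626 to 0.102 CPM, and with 3 pools a group small differences could not be resolved. Replicates differed by far more than sampling noise.

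The 38 genes, the other lists and the tests were chosen with earlier results of these data known. Every library's level is given for the called genes with the 10 smallest p in each comparison and, in any case, for Slc2a1, Hk2, Pfkfb3, Ldha, Slc16a3, Pdk1, Hif1a and Adm. Genes of the other lists are named only where they had the smallest p of their list in their direction and were called. A gene of the other HIF targets is not reported here.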

Additional observations from a re-analysis of the deposited data

Results flagged for a closer look

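The ratio of Pfkl to Pfkm counts moved in opposite ways, with every resected blood pool above every intact one (the median ratio was 5.11 times the intact median) and every resected splenic pool below every intact one (0.427 times). The difference between tissues in this ratio was not tested.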

How the results depend on the processing

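Counts of called genes among the 38 depended on the test and on single pools more than on scaling or filters. In blood after resection (19 called), fitting the 2 groups alone gave 11, with 11% of all features called. Leaving out a library gave 9 to 20 there, with 11.5% to 21.6% of all features called. In this and the later ranges, the ends of the counts and of the shares need not come from the same fit. In spleen (1 called), DESeq2 gave 11 (and 13.8% of all features), limma voom 12 (18.2%), no filter 0 (0.352%) and the replicate block 0 (0.954%). Leaving out a library gave 0 to 6 there (0.00473% to 9.59%). Between blood and spleen of intact mice (7 called), limma voom gave 13, where it called 33.1% of all features, and the 2 groups alone 4 (4.9%). Leaving out a library gave 2 to 8 there (2.65% to 9.31%). After resection (14 called), leaving out a library gave 7 to 20 (8.84% to 28.4%). For the interaction (0 called), DESeq2 gave 3 (8.05% of all features), limma voom 5 (5.68%) and a filter of 10 counts in every library 1 (0.759%). Leaving out a library gave 0 to 1 (0.0236% to 0.447%). Left-out sets chosen after seeing the data gave 0 in spleen without library 3 of both resected groups (0.202% of all features). Without intact blood library 3 as well, they gave 5 in spleen (8.32%) and 13 between tissues of intact mice (16.4%). The same set gave 26 between tissues after resection (29.4%) and 7 for the interaction (2.76%). Spread, filter and scaling were set on all libraries of a fit together, so leaving out a blood library can also change the calls in spleen. Which of these moved the calls was not tested. No called gene changed sign under the alternatives run. Correlations of same-numbered deviations ran from -0.05 to 0.19 over the comparisons. Between blood and spleen after resection they were 0.04, 0.13 and 0.19 for libraries 1, 2 and 3. The highest correlations with another library number there were -0.02, 0.07 and -0.10. In the other comparisons the same-numbered value was not always the higher. Whether libraries of the same number came from the same mice was not tested. The replicate block gave 16 calls in blood (16.7% of all features), 6 between tissues of intact mice (7.05%), 15 after resection (16.1%) and 0 for the interaction (0.00497%).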
